A study of Mus musculus with 12 samples.

Results

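The 31 genes described here belong to sterol and fatty acid synthesis, out of 20432 genes measured in 6 mouse pancreatic cancer cell lines. They were chosen by name, as enzymes and regulators linked to the sterol regulatory element-binding proteins (SREBPs). The sterol arm holds 21 genes and the fatty acid arm 10, and the arms are kept apart throughout. All 31 were in the table and passed the filter for testing, with 187 to 59147 reads per gene and library.

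SREBPs are transcription factors made as precursors in the membrane of the endoplasmic reticulum. When membrane cholesterol is low, the escort protein Scap carries them to the Golgi apparatus, where proteases release the active part, and when cholesterol is high the Insig proteins hold them back. The product of Srebf2 mainly drives genes of cholesterol synthesis and the products of Srebf1 mainly those of fatty acid synthesis. Rapidly dividing tumour cells use both pathways to build membranes, and the mevalonate branch also supplies the lipid anchors of small GTPases such as RAS.

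The 6 lines, named 52205, 52419, 52424, 53105, 53369 and 53371, are cultured mouse pancreatic ductal adenocarcinoma cells. Each was sequenced as the parental culture, labelled wildtype, and as a culture labelled as a JAK1 knockout, made by infecting the parental line with pBabe-Cre-puro retrovirus and raising puromycin through 2, 4 and 7 µg/ml. JAK1 is a cytoplasmic kinase that many cytokine receptors use to activate STAT proteins, and the comparison asks which transcripts differ after its deletion. Both cultures grew in DMEM with fetal bovine serum, which itself brings lipoprotein cholesterol to the cells. There is 1 library for each line and condition, 6 parental and 6 Cre, and the lines serve as replicates, so a p-value reflects how uniform a change was over lines. Cultures infected with a virus lacking Cre were not analysed here, so infection, puromycin selection and time in culture cannot be told apart from the loss of JAK1, and the labels do not say whether the Cre cultures are clones or pools.

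The sequences before 3 start sites are shown for the elements through which SREBPs and their partner NF-Y are known to act on this pathway. Hmgcs1 holds matches to both patterns marked here, and of these Mvk and Fasn hold the NF-Y box only. They come from RefSeq (mouse assembly GRCm38.p6), each is 180 bases long, ends at the base before the start site and is written 5′ to 3′ on the gene's strand. Capitals mark matches to the sterol regulatory element pattern TCACNCCAC and to the NF-Y box CCAAT, read on either strand, where ATTGG is the NF-Y box on the other strand. Hmgcs1 lies on the plus strand at chr13:119690171-119690350, Mvk on the plus strand at chr5:114444089-114444268 and Fasn on the minus strand at chr11:120824548-120824727. The RefSeq span of Fasn reaches further 5′ than the start site used, to 120825166.
Hmgcs1: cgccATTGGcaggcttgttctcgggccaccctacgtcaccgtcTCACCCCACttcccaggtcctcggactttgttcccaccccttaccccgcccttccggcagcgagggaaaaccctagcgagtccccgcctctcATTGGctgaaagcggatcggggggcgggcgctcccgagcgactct
Mvk: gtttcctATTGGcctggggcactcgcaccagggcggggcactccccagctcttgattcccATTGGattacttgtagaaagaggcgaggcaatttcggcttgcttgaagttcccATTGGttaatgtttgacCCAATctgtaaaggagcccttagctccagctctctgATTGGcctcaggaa
Fasn: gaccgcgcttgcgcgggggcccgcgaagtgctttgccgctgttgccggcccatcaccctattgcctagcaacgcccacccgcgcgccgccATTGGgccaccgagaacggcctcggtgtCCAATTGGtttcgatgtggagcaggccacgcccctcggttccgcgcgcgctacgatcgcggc

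In the sequence of Hmgcs1 the sterol regulatory element starts 137 bases before the start site. Mvk has NF-Y boxes starting at 173, 120, 67, 50 and 14 bases before its start. In Fasn an NF-Y box at position -62 overlaps another on the opposite strand at -59. Windows from 250 bases before to 50 after a start were found for 24 of the 31 genes, 17 of the sterol arm with 20 windows and 7 of the fatty acid arm with 9 windows. The NF-Y box was in 80.0% of the sterol windows and 55.6% of the fatty acid windows. It was in 37.4% of 32851 promoter windows of the same length. Counted by gene, it was in 16 of the 17 sterol genes, against 11096 of the 27025 genes with a window. The GC box GGGCGG, a binding site of SP family factors, was in 85.0% and 55.6%, against 35.7% of all windows. The E box CACGTG was in 4 of the 20 sterol windows, in 0 of the 9 fatty acid windows and in 7.15% of all. The full pattern TCACNCCAC was in 1 sterol window, that of Hmgcs1, in 0 of the 9 fatty acid windows and in 1.24% of all. With 1 mismatch allowed it was in 9 of the 20 sterol windows, 1 of the 9 fatty acid windows and 24.2% of all. The 32851 windows were not limited to genes expressed in these cells, so these shares do not set the pathway apart from other expressed genes. A match is a description of the letters and no evidence of binding in these cells.

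The libraries held 11.5 to 18.0 M reads in genes (M, 1e+06 reads), and levels are given as normalised counts per 1e+06 reads (CPM), where 1 read was worth 0.0569 to 0.0896 CPM. Parental libraries had Jak1, the targeted gene, at 170 ± 26.7 CPM and Cre libraries at 168 ± 44.2 (SD, n = 6 each), higher after Cre in 2 pairs and lower in 4. Its log2 change was -0.04 (SE 0.09, limma adjusted p = 0.838 with Benjamini-Hochberg adjustment). Which part of the gene Cre removes is not in the labels, and reads from the rest still count, so this total is no check of the deletion. Markers of the labelled ductal cell type differed widely in level between the lines. The summed level of 7 ductal markers ran from 444 to 12248 CPM in parental and from 360 to 13103 in Cre libraries. The lowest sums were those of line 52419, at 444 CPM in the parental and 360 in the Cre library. There the keratin gene Krt8 was at 0.82 and 0.54 CPM and the E-cadherin gene Cdh1 at 0.37 and 0.61. Nearly all of the sum in 52419 thus came from the other markers. In 53369 the markers summed to 1765 and 1943 CPM, with Cdh1 at 17.5 and 36.4. Fat cells and hepatocytes are rich in lipid synthesis. Of 6 adipocyte markers, 3 were among the genes measured. They summed to 0.52 to 16.6 CPM in parental and 0.77 to 25.9 in Cre libraries. Adipoq, the adipocyte hormone adiponectin, was under 1 CPM in every library, so most of the higher sums came from the other markers. Hepatocyte markers summed to 0.52 to 2.78 and 0.61 to 11.4 CPM, with the albumin gene Alb under 1 CPM in every library.

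No gene of either arm passed the test between Cre and parental cultures. The intervals left little room for a mean change over lines beyond 1.5-fold. By limma with Benjamini-Hochberg adjustment over 12734 genes, called under an adjusted p of 0.05, 0 of 21 sterol genes and 0 of 10 fatty acid genes were called in either direction. The background is small too, since 0.0236% of all genes tested were called, 3 genes, all lower. At an unadjusted limma p under 0.05 there were 0 of the 31, where 15.1% of all genes tested passed. On the recovered read counts edgeR called 0 of the 31 (0.0393% of all genes tested) and DESeq2 called 0 (2.12%). The smallest unadjusted p among the 31 was 0.0564, and adjusted p by limma ran from 0.341 to 0.980. The change had the same direction in 6 of 6 pairs for 0 of the 31, where 8.67% of all genes tested did so. Fewer transcripts per cell and fewer cells making them cannot be told apart in bulk RNA.

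The intervals give the size of the mean change over lines that these data leave room for. The 95% confidence interval of the fold lay within 1.5-fold in either direction for all 21 sterol genes and for 9 of the 10 fatty acid genes, and within 1.25-fold for 12 and 5 of them. The exception was Acss2, which makes acetyl-CoA from acetate, with an interval of 0.657 to 1.08. All 31 intervals lay within 2-fold. The share of all genes tested with intervals this narrow was not computed, so these counts do not set the 31 genes apart. In single lines some changes went beyond 1.5-fold, with log2 changes of -1.09 for Acss2 in 52424, -0.69 for Tm7sf2 in 52419 and 0.67 for Pmvk in 52205. The median log2 change was -0.01 in the sterol arm, with 10 genes above 0 and 11 below, and 0.05 in the fatty acid arm, with 6 above and 4 below. Over all genes tested it was -0.00024. The median size of the change, without its sign, was 0.077 on the log2 scale in the sterol arm and 0.088 in the fatty acid arm. It was 0.126 over all genes tested and 0.106 over the 6847 tested genes with a mean level at or above the lowest mean among the 31, 30.9 CPM.

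**Figure D1:**
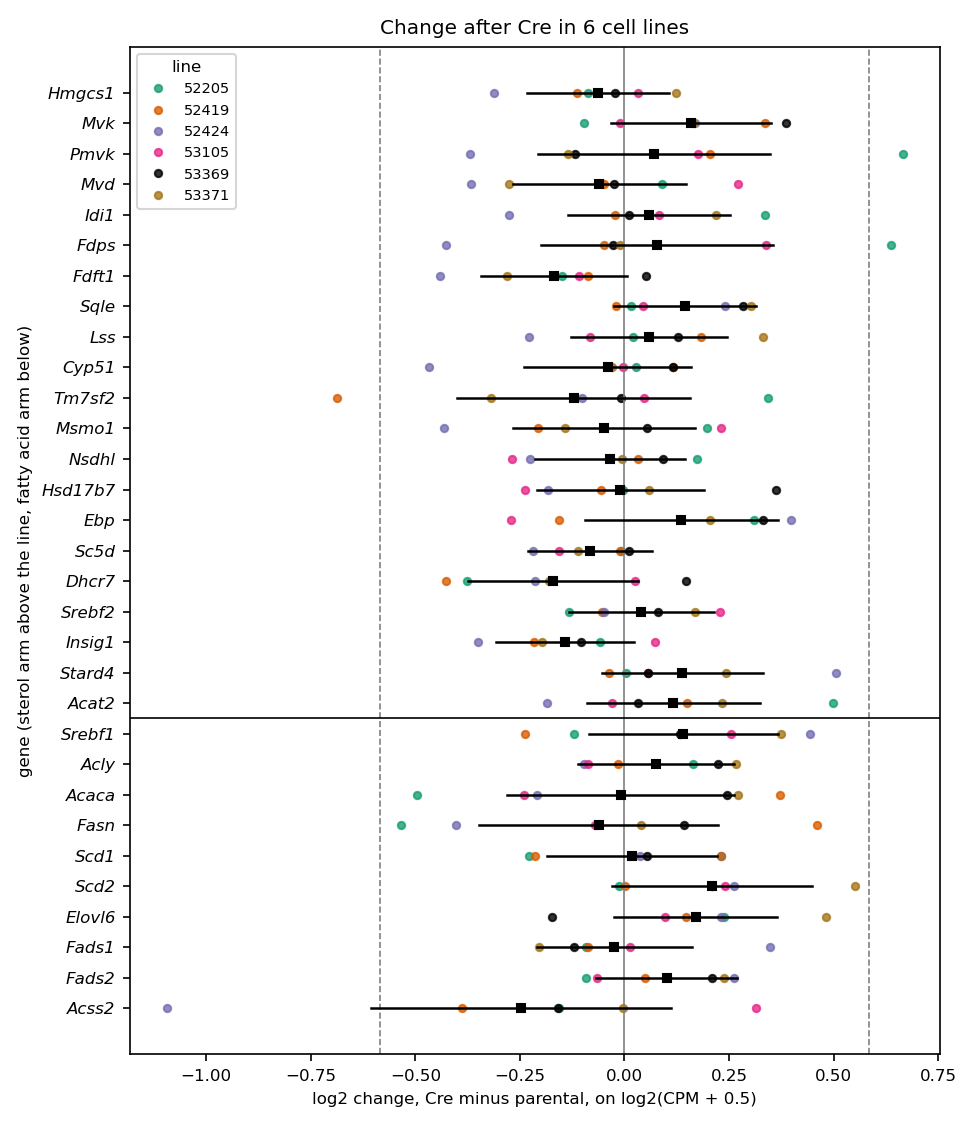
Log2 change of each gene, Cre minus parental, on log2(CPM + 0.5). Coloured points are the 6 lines, black squares the fitted mean, black bars its 95% confidence interval, and dashed lines mark 1.5-fold. Every interval crosses 0, and only that of Acss2 crosses a dashed line.

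None of the regulators of the sterol arm passed the test, and the smallest change was that of Srebf2. Srebf2, the SREBP of cholesterol synthesis (chromosome 15, 82147269 to 82205379), ranged from 426 to 672 CPM in parental libraries with a median of 541, and from 410 to 774 with a median of 588 in Cre libraries. Its groups overlapped, 3 pairs were higher and 3 lower, and the log2 change was 0.04 (SE 0.08, limma adjusted p = 0.833). Insig1, the sterol-sensitive anchor that holds SREBPs in the endoplasmic reticulum and is itself an SREBP target (chromosome 5, 28071412 to 28078662), ranged from 124 to 339 CPM with a median of 276 in parental libraries. After Cre it ranged from 115 to 356 with a median of 248. It was lower in 5 of 6 pairs, the exception being 53105, where it went from 339 to 356 CPM. The change of -0.14 (SE 0.07) did not pass, with limma adjusted p = 0.388 and exact 2-sided sign-flip permutation p = 0.0938, where 6 pairs allow no p below 0.0313. Stard4, a carrier that moves cholesterol between membranes, had 93.0 ± 33.3 CPM before and 102 ± 34.5 after Cre (SD, n = 6 each), higher in 5 pairs. Its largest change was in 52424, from 76.3 to 108 CPM, and without that line the fitted log2 change was 0.065 against 0.14 over all lines.

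Among the enzymes that carry acetyl-CoA to farnesyl diphosphate, directions were mixed. Acat2 joins a pair of acetyl-CoA molecules, and its mean was 143 ± 27.9 CPM in parental and 158 ± 48.2 in Cre libraries (SD, n = 6 each). Hmgcs1, which makes HMG-CoA, was at 363 ± 106 and 347 ± 98.1 CPM, with 2 pairs higher and 4 lower. The kinases Mvk and Pmvk, which phosphorylate mevalonate, had log2 changes of 0.16 and 0.07. The decarboxylase Mvd was at -0.06, the isomerase Idi1 at 0.06 and Fdps, which makes farnesyl diphosphate, at 0.08. None passed the test, and limma adjusted p ran from 0.405 for Mvk to 0.812 for Pmvk.

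Fdft1, squalene synthase, the step that commits farnesyl diphosphate to sterols (chromosome 14, 63145150 to 63181687), had the smallest p of all 31. It ranged from 126 to 214 CPM with a median of 151 in parental libraries and from 92.5 to 192 with a median of 147 in Cre libraries. The groups overlapped, but 5 of 6 lines were lower after Cre, most in 52424 (126 to 92.5 CPM), and 53369 was higher (137 to 142 CPM). The log2 change was -0.17 (SE 0.08), with limma adjusted p = 0.341 and exact sign-flip permutation p = 0.0625. Its annotated span overlaps the end of Ctsb, a cathepsin gene with 3582 to 14774 reads per library, and the protocol names no step that keeps strand, so reads in the overlap cannot be assigned to either gene. Sqle, squalene epoxidase, a rate-limiting step after squalene (chromosome 15, 59315092 to 59331193), ranged from 251 to 989 CPM with a median of 338 in parental and from 310 to 1203 with a median of 342 in Cre libraries. It was higher after Cre in 5 pairs, by 0.14 (SE 0.08, limma adjusted p = 0.392, exact sign-flip permutation p = 0.0938), and in both conditions the highest value was that of line 53369.

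The enzymes that make lanosterol and carry it to cholesterol gave no common direction. Dhcr7, which makes cholesterol from its last precursor (chromosome 7, 143823167 to 143848410), ranged from 53.8 to 155 CPM with a median of 89.9 in parental and from 59.6 to 115 with a median of 76.5 in Cre libraries. It was lower in 4 pairs, most in 52419 (155 to 115 CPM) and 52205 (79.9 to 61.4 CPM), with a log2 change of -0.17 (SE 0.09, limma adjusted p = 0.395, exact sign-flip permutation p = 0.125). Lss, which closes the sterol rings, was at 0.06, the demethylation enzymes Cyp51, Msmo1, Nsdhl and Hsd17b7 at -0.04, -0.05, -0.03 and -0.01, the isomerase Ebp at 0.14 and the desaturase Sc5d at -0.08. Tm7sf2, a sterol reductase, was at -0.12 and at -0.01 without line 52419, where it went from 32 to 19.7 CPM. Its annotated span (6062821 to 6067850) overlaps that of Vps51 (from 6067842) by a few bases only, with the same limit on strand for reads there.

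In the fatty acid arm the genes with the smallest p were a desaturase and an elongase, both with means above the parental level. Scd2, a stearoyl-CoA desaturase that makes monounsaturated fatty acids (chromosome 19, 44293676 to 44306864), had 1724 to 2972 CPM and a median of 2016 in parental libraries. After Cre it ranged from 2007 to 3509 with a median of 2435. It differed little in 52205 (2715 to 2692 CPM) and 52419 (2006 to 2007 CPM) and was higher in the other lines, most in 53371 (1724 to 2528 CPM). The log2 change was 0.21 (SE 0.11), with a 95% interval of -0.03 to 0.45, limma adjusted p = 0.382 and exact sign-flip permutation p = 0.0938, and without 53371 the change was 0.14. Its neighbour and near copy Scd1 was at 747 ± 223 and 760 ± 215 CPM (SD, n = 6 each), a log2 change of 0.02, and the counting could split reads that the copies share. Elovl6, which lengthens palmitate to stearate (chromosome 3, 129532386 to 129638495), ranged from 118 to 247 CPM with a median of 186 in parental and from 158 to 264 with a median of 191 in Cre libraries. It was higher in 5 pairs and lower in 53369 (193 to 171 CPM), with a log2 change of 0.17 (SE 0.09, limma adjusted p = 0.382, exact sign-flip permutation p = 0.125), and 0.11 without 53371.

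Acss2 (chromosome 2, 155518043 to 155562743) had 15.7 to 49.7 CPM and a median of 35.2 in parental and 14.0 to 40.0 with a median of 30.5 in Cre libraries. It was lower in 5 pairs, but line 52424 carried most of the difference, going from 35.6 to 16.4 CPM, and 53105 went from 21 to 26.3. The log2 change was -0.25 (SE 0.16, limma adjusted p = 0.481, exact sign-flip permutation p = 0.219), and -0.078 without 52424. Srebf1, the SREBP gene of fatty acid synthesis (chromosome 11, 60199084 to 60224186), ranged from 173 to 360 CPM with a median of 213 in parental and from 149 to 394 with a median of 235 in Cre libraries. It was higher in 4 pairs and lower in 52205 and 52419, with a log2 change of 0.14 (SE 0.10, limma adjusted p = 0.522, exact sign-flip permutation p = 0.219), and 0.080 without 52424. Its span overlaps Rai1, with the same limit on strand.

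Among the core enzymes of palmitate synthesis, Acaca and Fasn had changes of opposite sign in different lines. Acly, which makes cytosolic acetyl-CoA from citrate, was at 722 ± 108 and 756 ± 65.3 CPM in parental and Cre libraries (SD, n = 6 each). Acaca, the acetyl-CoA carboxylase of the cytosol, was at 72.1 ± 14.1 and 72.4 ± 19.3 CPM. Fasn, fatty acid synthase, was at 793 ± 184 and 753 ± 139 CPM, with 3 pairs higher and 3 lower for each of these 3 genes. In line 52205 Fasn went from 1006 to 694 CPM and Acaca from 87.9 to 62.2, while in 52419 Fasn went from 742 to 1020 and Acaca from 79.9 to 104. The front-end desaturases Fads1 and Fads2, which make polyunsaturated fatty acids, had log2 changes of -0.02 and 0.10.

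Each line is a comparison of 1 Cre with 1 parental library, so what follows describes those libraries and carries no test. In 52424 the sterol genes were mostly lower, 17 of 21, with a mean log2 change of -0.17 and a median of -0.23, while 50.3% of all genes tested were higher there. Cyp51 was at -0.47, from 365 to 264 CPM, Fdft1 was at -0.44 and Fdps at -0.43, and against them Stard4 was at 0.51, Ebp at 0.40 and Sqle at 0.24. In 52205 the sterol mean was 0.11, with 13 of 21 higher, against 50.5% of all genes tested. Pmvk (0.67, 87.7 to 139 CPM), Fdps (0.64, 191 to 298 CPM) and Acat2 (0.50) were highest there. In 53369 the mean was 0.09, with 15 of 21 higher, where 51.1% of all genes tested were higher. In 52419 it was -0.06, with 15 of 21 lower, where 51.6% of all genes tested were higher. Lines 53105 and 53371 were at 0.02 and 0.02. The sterol arm thus had a mean above 0 in 4 lines and below 0 in 2, with the same signs under the other scalings and pseudocounts tried. With library totals only the mean was 0.057 in 52205 and 0.070 in 53371, so the order of those lines turned.

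The mean of the fatty acid arm had the sign of the sterol mean in some lines, but not in 52205, where the sterol mean was above 0. In 52205 the fatty acid mean was -0.13 with 8 of 10 genes lower, where 50.5% of all genes tested were higher. In 53371 it was 0.22 with 8 of 10 higher, where 47.1% of all genes tested were higher, and Scd2 (0.55), Elovl6 (0.48) and Srebf1 (0.37) were highest. In 52419, 52424, 53105 and 53369 it was 0.01, -0.02, 0.07 and 0.08. The first 2 of these have no settled sign, since with library totals only they were -0.020 and 0.007, and line 52419 was at -0.011 in the deposited log2 values. The difference between the arms was not tested. For 8 proliferation genes the mean log2 change was 2.37 in 53371, 0.76 in 52424, 0.41 in 52205, 0.38 in 52419, 0.21 in 53369 and -0.03 in 53105. Limma, edgeR and DESeq2 each called 0 of these 8. At an unadjusted limma p under 0.05 there were 5, all higher, where 15.1% of all genes tested passed. The part of the proliferation genes in the values of the arms was not tested.

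**Figure D2:**
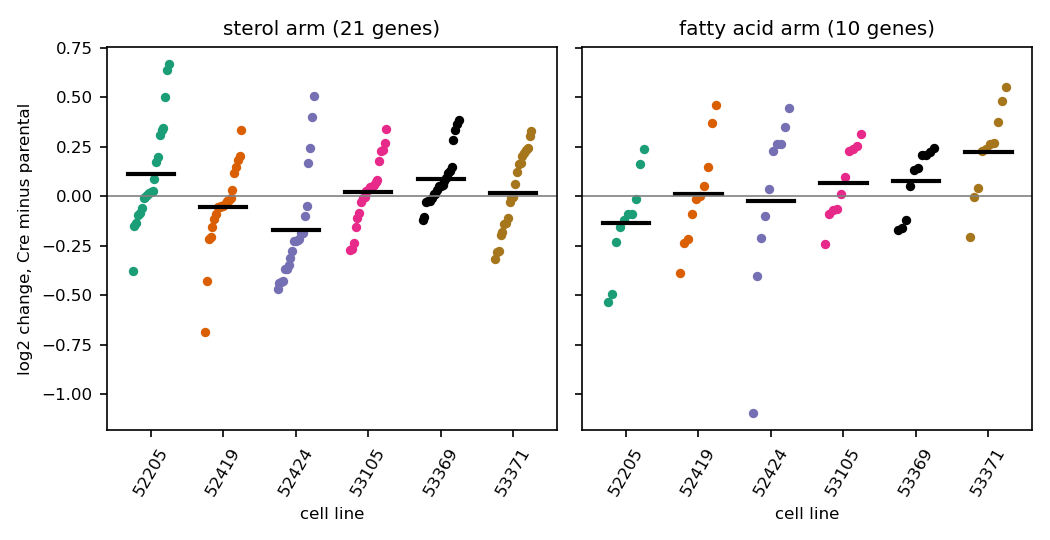
Log2 change of each gene in each line, Cre minus parental, on log2(CPM + 0.5), with the sterol arm on the left and the fatty acid arm on the right. Points are genes in order of their change and black bars are means, which run from -0.17 (52424) to 0.11 (52205) in the sterol arm and from -0.13 (52205) to 0.22 (53371) in the fatty acid arm.

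Differences between the lines were called for most of the 31 genes. A limma F test of the line terms, with Benjamini-Hochberg adjustment, called 20 of 21 sterol genes and 7 of 10 fatty acid genes. This share is to be read against 71.1% of all genes tested, and 74.2% of the 6847 genes at or above 30.9 CPM, so a difference between lines was called for most genes here, pathway or not. The 2 libraries of a line share a source. The sterol gene not called was Msmo1 (adjusted p = 0.179), and the fatty acid genes not called were Acly (0.122), Acaca (0.0540) and Fasn (0.188). The ratio of the highest to the lowest line mean shows the same genes Msmo1, Acly and Fasn among the steadiest. It was 1.36 for Acly, 1.40 for Sc5d, 1.41 for Fasn and 1.43 for Msmo1, while it reached 6.36 for Tm7sf2, 4.78 for Fdps, 3.91 for Sqle and 3.66 for Ebp.

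**Figure D3:**
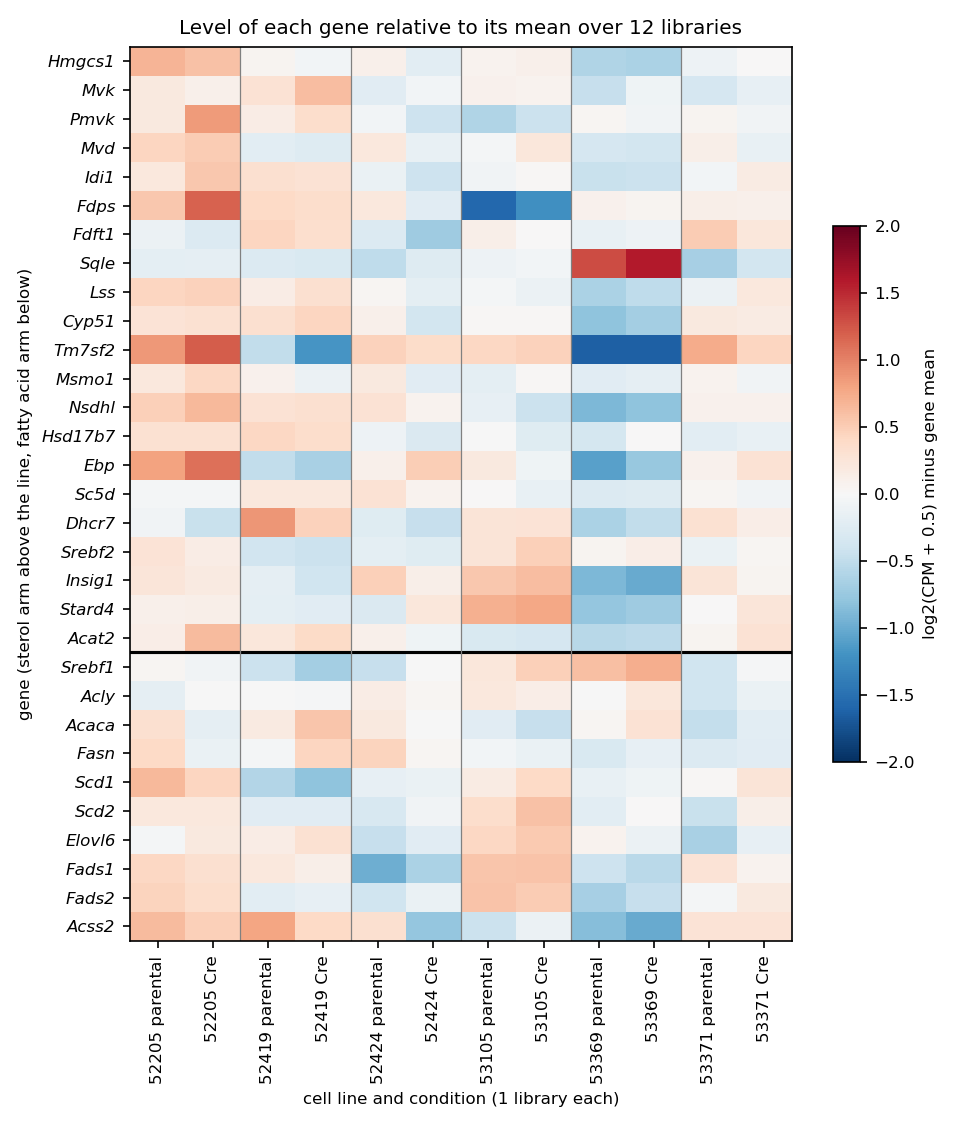
Level of each gene in each of the 12 libraries, as log2(CPM + 0.5) minus the gene's mean over the libraries, with red above and blue below the mean. The columns of 53369 are mostly blue in the sterol arm and those of 52205 mostly red. Sqle in 53369 and Fdps in 53105 stand against the other lines of their rows.

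Line 53369 had the lowest sterol arm and 52205 the highest. In 53369, 18 of 21 sterol genes were below their own mean over the lines, by a mean of -0.40 on the log2 scale, while 50.1% of all genes tested were below theirs. It was the lowest of the 6 lines for 15 of the 21, where 18.7% of all genes tested were lowest there. Tm7sf2 was at 14.3 and 14.2 CPM in the parental and Cre libraries of 53369 and between 19.7 and 105 in the other lines. Insig1 was at 124 and 115 against 176 to 356, Cyp51 at 195 and 211 against 264 to 458, and Hmgcs1 at 225 and 222 against 296 to 549. For these 4 genes both libraries of 53369 were below every library of the other lines. The genes above their mean were Sqle, Srebf2 and Fdps, and without Sqle, a choice made after seeing the data, the mean was -0.49. The summed level of 6 fibroblast markers was 2173 and 1265 CPM in the parental and Cre libraries of 53369 and 7.86 to 179 in the other libraries, led by the collagen genes Col1a2 and Col3a1, and its part in these values was not tested. In 52205, 17 of 21 sterol genes were above their mean, by a mean of 0.34, where 52.1% of all genes tested were above theirs. It was the highest line for 11 of the 21, against 11.9% of all genes tested.

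Srebf1 went the other way in 53369. It was at 360 CPM in the parental and 394 in the Cre library, above every library of the other lines, which held 149 to 332. The fatty acid arm as a whole was not high there, with a mean of -0.15. Of its genes 7 of 10 were below their mean, against 50.1% of all genes tested. Acss2 was at 15.7 and 14.0 CPM and Fads2 at 101 and 117, each the lowest line mean of the 6. The fatty acid arm was highest in 52205 (mean 0.22, 8 of 10 above, against 52.1% of all genes tested) and 53105 (0.21, 7 of 10 above, against 53.1%). Line 53105 was the highest for 5 of the 10, where 16.8% of all genes tested were highest there, with Scd2 at 2972 and 3509 CPM and Fads1 at 364 and 367.

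Sqle in line 53369 was the firmest difference between lines among the 31, with an F of 61.2 at the 95.1 percentile of all genes tested. It was at 989 CPM in the parental and 1203 in the Cre library, against 251 to 384 in the 10 libraries of the other lines, a log2 level 1.74 above their median. Both libraries of 53369 were thus far outside the range of the rest, while 18 of the other 20 sterol genes were below their mean in that line. Genes near Sqle on chromosome 15 were high with it, in a comparison made after seeing the data. Of its 20 nearest tested genes, 10 on each side, 16 were highest of the 6 lines in 53369, where 19.1% of all genes tested were. Their median log2 level was 1.73 above the median of the other lines, against -0.01 over all genes tested. Among them were Ndufb9, a subunit of respiratory complex I, at 673 and 667 CPM against 71.8 to 175, Washc5, part of an endosomal complex, at 900 and 1122 against 124 to 328, and Rnf139, a ubiquitin ligase of the sterol response, at 195 and 212 against 38.1 to 65.0. Trib1, a pseudokinase adaptor of protein degradation, was at 362 and 477 against 54.8 to 127, and Myc at 600 and 576 against 220 to 429.

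The difference was largest close to Sqle, over ranges of distance also set after seeing the data. The 26 tested genes within 5 Mb on the lower side had a median difference of 2.44 and 84.6% were highest in 53369, and the 7 genes within 3 Mb on the higher side had 2.24 and 85.7%. Further away it was smaller, at 0.39 for 112 genes from 5 to 60 Mb on the lower side. It was 0.25 for 355 genes from 3 to 50 Mb on the higher side. In these ranges 52.7% and 41.7% were highest in 53369, still above the 19.1% of all genes tested, whose median difference was -0.01. These measurements are of transcripts, and DNA copy number was not measured here. The part of the region in the level of Sqle was not tested.

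**Figure D4:**
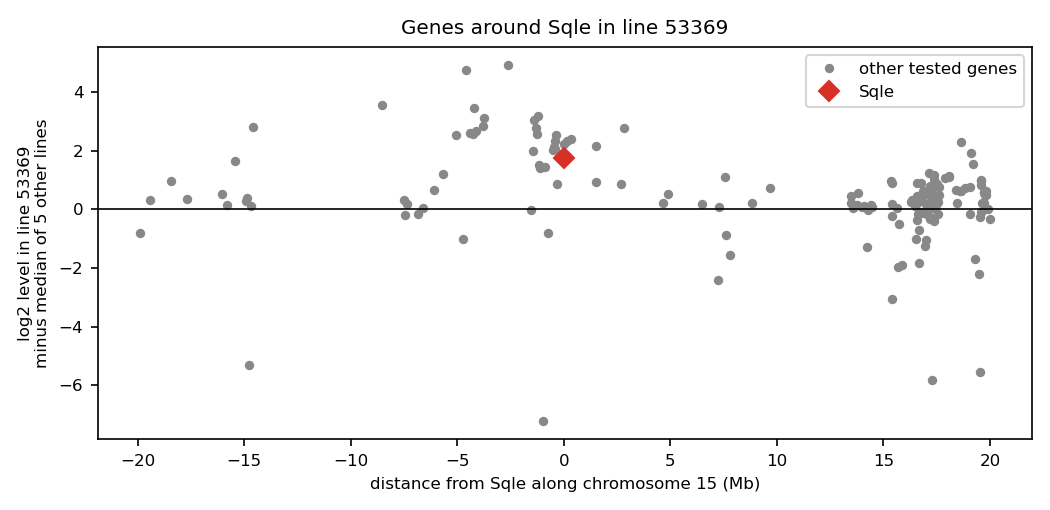
Log2 level in line 53369, mean of its 2 libraries, minus the median of the 5 other lines, for tested genes within 20 Mb of Sqle (red), by distance from Sqle along chromosome 15. Most genes within a few Mb of Sqle lie near 2. Most genes further away lie lower, more of them above 0 than below.

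Fdps in line 53105 was the reverse case, at 44.0 CPM in the parental and 55.8 in the Cre library against 113 to 298 in the other lines, a log2 level 1.52 below their median. Of its 20 nearest tested genes on chromosome 3, 3 were lowest of the 6 lines in 53105, where 15.8% of all genes tested were, and their median difference was 0.0051. The enzymes just before and after it in the pathway were within the range of the other lines. In 53105 Idi1 was at 127 and 134 CPM against 97.2 to 194 in the other lines, and Fdft1 at 163 and 151 against 92.5 to 214. Pmvk, earlier in the pathway, was also lowest in 53105, at 50.6 and 57.3 CPM against 57.4 to 139. It also lies on chromosome 3, 0.36 Mb from Fdps and outside those 20 genes.

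**Figure D5:**
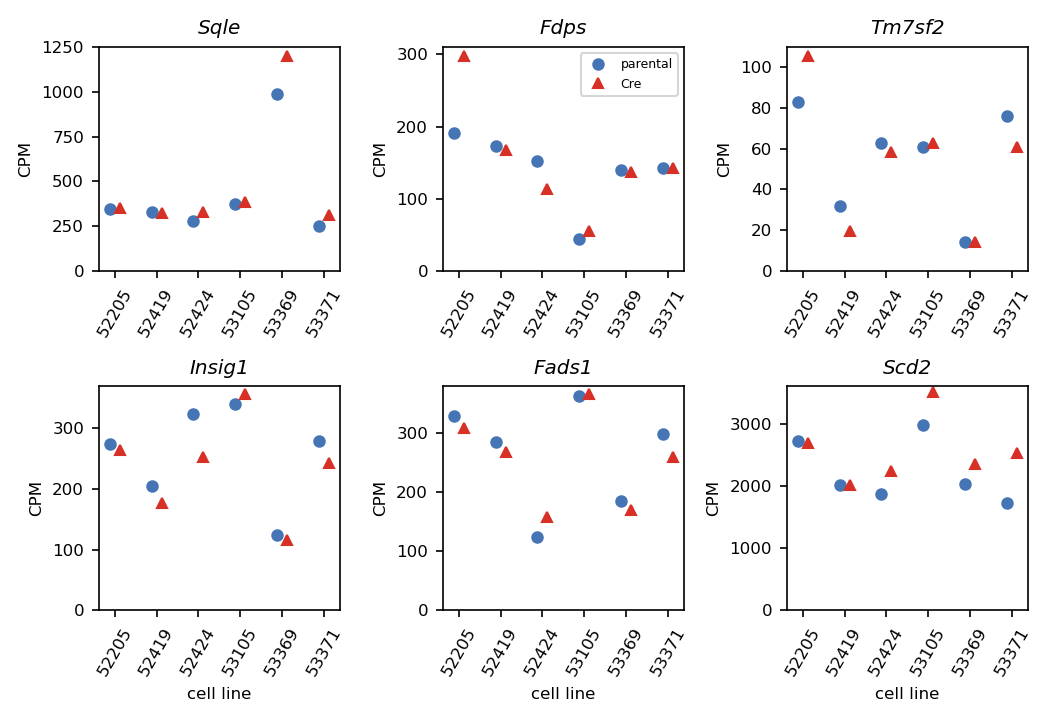
CPM of 6 genes in the parental (circles) and Cre (triangles) library of each line, with each axis starting at 0. The 2 libraries of a line lie close together compared with the spread between lines for Sqle, Tm7sf2, Insig1 and Fads1, Sqle is high in 53369, Fdps is low in 53105, and Scd2 is higher after Cre in 4 of the 6 lines by more than the size of the marker.

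To compare levels between genes, mean CPM over the 12 libraries was divided by the length of the longest protein-coding transcript in kilobases. On this scale Scd2 was highest of the 31 at 437 CPM per kilobase, followed by Acly at 167, Sqle at 165, Scd1 at 156 and Msmo1 at 141. The value of Sqle rests in part on line 53369, and without it Sqle was at 119. Srebf2 was at 111, Fdps at 106 and Hmgcs1 at 102, with Srebf1 lower at 57.8. The lowest were Acaca at 7.59, Acss2 at 10.5, Hsd17b7 at 16.9 and Stard4 at 19.2.

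Genes that sense and move sterols did not pass the test either. Over the 6 lists that follow, with 85 genes tested, limma, edgeR and DESeq2 each called 0. Of all genes tested they called 0.0236%, 0.0393% and 2.12%, so 0 calls do not set these genes apart. Counts at an unadjusted limma p under 0.05 are to be read against 15.1% of all genes tested. Among 11 factors that escort, cleave or degrade SREBPs and Insigs, 0 passed limma over all genes in either direction and 1 was lower at an unadjusted p under 0.05, with 6 above 0, 5 below and a median log2 change of 0.02. Insig2, a relative of Insig1, was at 65.3 ± 20.2 and 55.8 ± 14.0 CPM (SD, n = 6 each), lower in 5 pairs with a change of -0.21 (limma adjusted p = 0.313). Rnf139 was higher in 6 of 6 pairs by a fitted 0.16 (limma adjusted p = 0.341). The escort gene Scap was at 104 ± 15.7 and 112 ± 19.3 CPM. Among 10 genes of the liver X receptors (LXRs) and cholesterol efflux, the programme that answers high sterol, 0 passed, 2 were lower at an unadjusted limma p under 0.05 and the median was -0.05. Mylip, a ubiquitin ligase for lipoprotein receptors and an LXR target, had a change of -0.59, lower in all 6 pairs (limma adjusted p = 0.248). It was low in several lines, from 1.21 to 21 CPM in parental and 0.54 to 20.6 in Cre libraries. Nr1h2, an LXR gene, was at -0.24 (limma adjusted p = 0.320), and at -0.15 without 53371.

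Uptake, storage and the branches of the pathway also gave 0 calls. Of 12 genes for cholesterol uptake, esterification and trafficking 0 passed and 1 was lower at an unadjusted limma p under 0.05, with a median of -0.03. Vldlr, a lipoprotein receptor, was at -0.56 (limma adjusted p = 0.303) and at -0.32 without 52419, where it went from 38.7 to 10.9 CPM. Npc1, which exports cholesterol from lysosomes, was at -0.25 (limma adjusted p = 0.388), with 3 pairs lower and 3 higher, and at -0.11 without 52205. Of 11 isoprenoid and prenylation genes 0 passed and 0 were under an unadjusted limma p of 0.05, with a median of -0.02. Pdss1, which makes the side chain of ubiquinone, was at 0.37 (limma adjusted p = 0.386) and 0.17 without 53371, and Dhdds, a dolichol synthesis gene, at -0.15 (limma adjusted p = 0.476).

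Of 24 other lipogenic and lipid assembly genes 22 were tested and 0 passed, 2 were lower at an unadjusted limma p under 0.05 and the median was 0.01. The pair below the filter, Mlxipl and Thrsp, known for their role in liver lipogenesis, was under 1 CPM in every library. Acacb, the acetyl-CoA carboxylase at mitochondria that restrains fatty acid oxidation, was lower in 6 of 6 pairs, with a change of -0.86 (limma adjusted p = 0.240), and low in level, from 0.68 to 14.6 CPM in parental and 0.36 to 3.85 in Cre libraries. Lpin1, a phosphatidate phosphatase, was at -0.18 (limma adjusted p = 0.329). Of 19 fatty acid oxidation genes 0 passed, with 15 above 0 and a median of 0.08, where 6357 of 12734 genes tested were above 0. At an unadjusted limma p under 0.05 there were 4, all above 0, where 15.1% of all genes tested passed that line. Hadha and Hadhb, the subunits of the mitochondrial trifunctional protein, were at 0.21 (higher in 6 of 6 pairs, limma adjusted p = 0.257) and 0.35 (higher in 5, adjusted p = 0.275).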

How the data were processed

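RNA of 12 cultures was sequenced after oligo(dT) selection. Tools named in the submitters' processing notes are featureCounts, edgeR and FastQC 0.11.9, with the builds GRCm38 and mm10. For the aligner, nothing is given in the sources used here. Values of the main deposited table are a linear signal, read counts over scaled library sizes, per 1e+06 reads (CPM). All of its values (100%) were whole multiples of 1 read within a tolerance of 0.01, which gave back the reads, with scaling factors of 0.968 to 1.052. Another deposited table gives 10903 genes as log2 values, with a floor of -2.74. Entrez numbers were matched to RefSeq symbols for 19448 genes.

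Genes at or above 1 CPM in at least 6 libraries (12734) were tested with limma-trend (limma 3.58.1, R 4.3.3) on log2(CPM + 0.5), a scale that understates changes of low genes. Cell line was a block, p-values were 2-sided and adjusted by Benjamini-Hochberg. The block follows the isogenic pairs of the series design, and deviations from the group means of the 2 libraries of a line correlated across genes at 0.73 to 0.95. Lines were compared by an F test of the 5 line terms. Alternatives were no replicate block, other filters, scalings and pseudocounts, the log2 table as deposited, library weights, each line left out, edgeR 4.0.16 and DESeq2 1.42.0 on the recovered reads. The scripts were tested on simulated data. Figures were drawn with matplotlib 3.10.9.

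The 31 members and the other lists were chosen with earlier results of these data known. All 31 are named, with fullest values for the 4 of each arm with the smallest p and for Srebf1, Srebf2 and Insig1, and from each other list the 2 genes with the smallest p. Scap, the untested pair Mlxipl and Thrsp, and genes named for 1 line or as neighbours were chosen after their values were seen. Some genes of the pathway are not reported here.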

Additional observations from a re-analysis of the deposited data

Results flagged for a closer look

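In groups of 6 libraries or lines, a value was set apart where its gap to the nearest of the others, over the whole range, exceeded Dixon's critical value for 6 values. Of 107 groups 9 met this, and chance gives about 1 in 20. Sqle in line 53369 stood apart in both conditions, at 988.8 CPM in the parental group (the others 251 to 372) and 1203 in the Cre group (310 to 384). Fdps and Pmvk stood apart in parental 53105, Fdps at 44.0 CPM (139 to 191) and Pmvk at 50.6 (74.4 to 87.7). Cyp51 was at 194.8 CPM in parental 53369 (345 to 423), and its log2 change of -0.47 in 52424 lay below those of the other lines (-0.03 to 0.12). In the Cre group Mvk was at 91.3 CPM in 52419 (52.7 to 63.5), Fasn at 1020 in 52419 (647 to 782) and Msmo1 at 378.7 in 52205 (242 to 291).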

How the results depend on the processing

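Under 17 other settings 0 of the 31 members were called, and the lowest adjusted p of a member was 0.176, with limma library weights. The sign of 20 members held in all 17 settings. For the other 11 it turned in at least 1, and their changes over all lines were at most 0.077 in size. With library weights Cyp51 was at 0.026, Hsd17b7 at 0.081, Acaca at 0.11 and Fasn at 0.070. With each line left out in turn the ranges were -0.049 to 0.16 for Pmvk, -0.13 to 0.0017 for Mvd, -0.035 to 0.18 for Fdps, -0.072 to 0.045 for Cyp51, -0.11 to 0.027 for Msmo1, -0.075 to 0.013 for Nsdhl, -0.084 to 0.036 for Hsd17b7, -0.086 to 0.088 for Acaca, -0.17 to 0.033 for Fasn, -0.025 to 0.067 for Scd1 and -0.098 to 0.012 for Fads1. Of those that kept their sign, Idi1 came to 0.0026, Lss to 0.0044, Srebf2 to 0.0022, Tm7sf2 to -0.0081 and Hmgcs1 to -0.013 at the smallest. The sterol median moved between -0.059 and 0.045 with a line left out and was 0.032 with library weights, and the fatty acid median stayed between 0.025 and 0.084.

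Over all genes, 3 lower and 0 higher calls became 0 lower without the replicate block, which pairs the libraries of a line, and 0 lower with no filter. They became 33 lower and 1 higher with library weights, 5 lower with edgeR, 208 lower and 62 higher with DESeq2, and 0 to 5 lower with a line left out. The cause was not tested. The block changed no call of a member. The sterol regulatory element was in 45.0% of sterol windows with 1 mismatch allowed, against 5.0%, as fewer letters had to match. With 1 library per line and condition, changes within a line have no replicate.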
